A study of Mus musculus with 7 samples.

Results

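Semaphorins, plexins and neuropilins, a family of guidance ligands and their receptors, were measured in cultured mouse cortical neurons. They were taken by symbol, as all single-gene probe sets of a semaphorin (*Sema*) or plexin (*Plxn*) gene or of *Nrp1* or *Nrp2*. A probe set is a group of short probes on an Affymetrix array that reads 1 transcript or a part of it. Of 79 such probe sets on the array, 3 had a name with _x, which marks probes that may bind other transcripts, and 20 stayed under a level of 50 on all arrays. That left 56 probe sets of 28 genes (17 semaphorins, 9 plexins and 2 neuropilins) among 22748 probe sets and 12315 genes tested in the whole series. The edge of the level rule ran between a *Sema4d* probe set with a highest value of 66.3 and a *Sema3d* probe set with 49.9. *Sema3b*, *Sema3d*, *Sema3g* and *Plxna4os1*, an RNA antisense to *Plxna4*, had no probe set inside it.

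Semaphorins are secreted or membrane-bound cues, and neuropilins and plexins are the receptors that read them. Growing axons and dendrites turn away from, or toward, a source of semaphorin when plexins on their surface change the activity of small GTPases and, through them, the actin and microtubule skeleton. Class 3 semaphorins are secreted and mostly act through a neuropilin that holds the ligand and a plexin that signals. The other vertebrate classes bind plexins directly, and in the cortex the family is known for axon guidance, dendrite growth and the placing and removal of synapses.

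The cells were cortical neurons of C57/Bl6J embryos of day 16, grown for 16 days in vitro. One group, called luciferase, was given a lentivirus with a short hairpin against luciferase 2 weeks before the RNA was taken (4 arrays). Per the methods, the viral particles were removed after some hours. The other group, called blank, was left untransduced (3 arrays). A luciferase hairpin has no target in mouse cells and served the study as the control for its knockdowns, so this comparison asks what transduction itself went with. The virus, the green fluorescent protein it expresses and the hairpin cannot be told apart, because the blank neurons had none of them. The abstract of the paper calls its control culture mock-transduced, and the methods do not say how the blank cultures were handled. A part of the handling in the difference therefore cannot be told apart either. The labels and methods name no separate litters or culture days, and each p-value therefore measures only how these samples spread, which may be technical.

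The level unit is the linear intensity after RMA, an estimate of transcript level that is comparable between arrays for the same probe set and not between probe sets. As deposited, the columns of the blank arrays are shifted down by 1 row, and they were moved back up first. Over the 79 probe sets of the family, the group means then differed by a median of 0.19 on the log2 scale, against 2.15 as deposited. The median level of all tested probe sets was 237.4 to 241.4 on the luciferase arrays and 215.5 to 235.1 on the blank arrays, and the median log2 change of all of them was 0.056. All 10 listed neuron markers were tested, of which 1 was higher (*Slc17a7*, 0.39 on the log2 scale) and 1 lower (*Nefl*, -0.80). That is 10% each way, beside 16.9% and 8.55% of all genes. Their summed level was 47289 to 48678 on luciferase arrays and 47024 to 49331 on blank arrays. Such a sum is compared only between arrays and follows mostly the probe sets with the highest levels. With 4 and 3 arrays the precision is limited.

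Of the 56 probe sets, 17 were higher in luciferase neurons and 2 were lower at an adjusted p of at most 0.05 from limma, and 37 did not pass. These are 30.4% and 3.57% of the members, beside 16.2% and 8.26% of all tested probe sets. *Plxnc1* alone gave 5 of the 17, and without it the shares were 23.5% and 3.92% of 51 probe sets. With a change of at least 1.5-fold as well, 6 were called higher and 1 lower, or 10.7% and 1.79%, beside 2.90% and 1.29% of all probe sets. The 6 higher ones were the 5 of *Plxnc1* and 1 of *Sema5a*, and the lower one belonged to *Sema7a*. The same 17 and 2 probe sets were those in which the arrays of the groups did not overlap, a pattern that 22.5% of all probe sets showed with the luciferase arrays above and 12.3% with them below. Counted once per gene, by the probe set with the highest mean level, 8 of 28 genes were higher and 2 lower (28.6% and 7.14%, beside 16.9% and 8.55% of all genes). The median change over the 28 genes was 0.11 on the log2 scale and that of all genes was 0.057. The count of higher member probe sets was 7 when blank replicate 5 was left out and 8 when replicate 6 was. The count of lower ones was 4 when replicate 7 was left out. In the same fits, 9.69% of all probe sets were higher without replicate 5 and 8.86% without replicate 6, and 9.59% were lower without replicate 7. Quantile normalization and median centring each left 11 higher and 2 lower members. Under both, *Sema4a*, *Sema6d*, both *Plxna2* probe sets that had passed, 1 of *Sema4d* and 1 of *Nrp1* no longer passed the adjusted p. Under quantile normalization 11.2% of all probe sets were higher and 11.6% lower, and under centring 9.10% and 15.3%. In bulk samples, fewer cells of a type and less RNA per cell cannot be told apart.

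**Figure D1:**
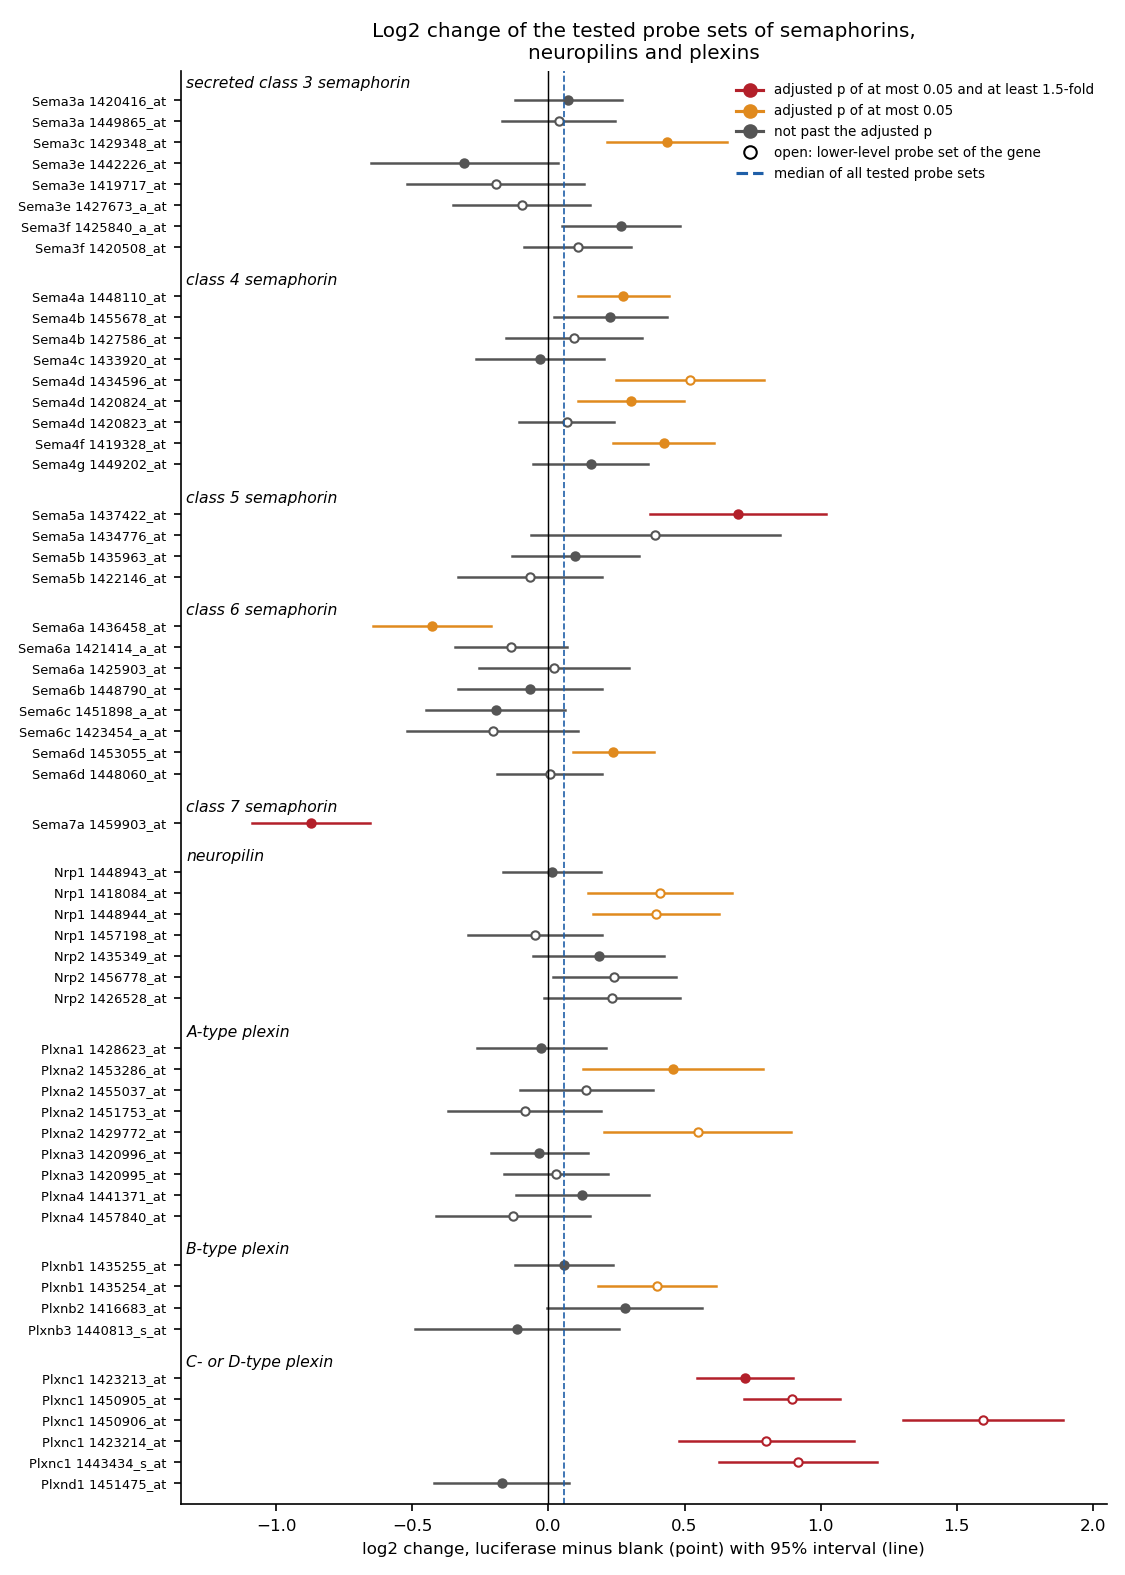
Log2 change (luciferase minus blank, x axis) of the 56 tested probe sets with 95% intervals from limma, ordered by role; red marks an adjusted p of at most 0.05 with at least 1.5-fold, orange the adjusted p alone, grey neither, and open points the lower-level probe sets of a gene; the dashed line is the median of all tested probe sets. The 5 *Plxnc1* probe sets lie farthest to the right, from 0.72 to 1.60, and *Sema7a* farthest to the left, at -0.87.

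The 3 genes called at 1.5-fold were *Plxnc1*, *Sema7a* and *Sema5a*, and the 250 bases upstream of their RefSeq start sites are shown because these genes carry the largest called changes. They are from build GRCm38.p6, written 5′ to 3′ on the strand of the gene. *Plxnc1* is at chr10:94944846-94945095 on the minus strand, *Sema7a* at chr9:57939862-57940111 on the plus strand and *Sema5a* at chr15:32244563-32244812 on the plus strand. Capitals mark the GC box GGGCGG on either strand, the only motif found in them.
Plxnc1: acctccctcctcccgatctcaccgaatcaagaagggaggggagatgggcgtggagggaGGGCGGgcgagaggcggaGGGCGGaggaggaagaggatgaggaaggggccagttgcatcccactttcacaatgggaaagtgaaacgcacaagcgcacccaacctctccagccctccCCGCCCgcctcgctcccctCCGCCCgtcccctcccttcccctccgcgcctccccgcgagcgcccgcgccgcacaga
Sema7a: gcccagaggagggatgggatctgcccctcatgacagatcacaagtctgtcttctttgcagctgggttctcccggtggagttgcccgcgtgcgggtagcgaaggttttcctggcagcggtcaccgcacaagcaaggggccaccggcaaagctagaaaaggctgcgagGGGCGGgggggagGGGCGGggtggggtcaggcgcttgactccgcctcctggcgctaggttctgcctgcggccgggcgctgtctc
Sema5a: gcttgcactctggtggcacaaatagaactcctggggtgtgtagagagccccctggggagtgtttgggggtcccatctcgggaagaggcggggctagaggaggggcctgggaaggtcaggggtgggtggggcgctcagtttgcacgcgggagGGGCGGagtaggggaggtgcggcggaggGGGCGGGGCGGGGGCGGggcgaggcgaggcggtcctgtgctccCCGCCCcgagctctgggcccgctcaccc
The *Plxnc1* window holds 4 GC boxes, that of *Sema7a* 2 and that of *Sema5a* 5, some of which share letters, and their GC contents are 68.8%, 66.4% and 72.0%. Promoter entries were found for 24 of the 28 genes (35 windows; *Plxna1*, *Plxna4*, *Sema3f* and *Sema6a* had none). A GC box stood in 74.3% of the member windows and in 32.7% of 32851 windows of all genes, and the median GC content was 64.4% in member windows and 52.4% in all. The other motifs, searched on both strands, were the cAMP response element TGACGTCA and its half-site TGACG, which lies within it, the AP-1 site TGANTCA, the MEF2 site and the TATA box TATAAA. The half-site was in 0 of 35 member windows and in 17.8% of all windows, the full element in 0 and in 1.55%, the AP-1 site in 3 member windows and in 6.75% of all, the MEF2 site in 1 and in 3.20% of all, and the TATA box in 0 and in 12.4%. A match is a stretch of letters and not a bound site.

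*Plxnc1*, the receptor of SEMA7A and the only C-type plexin, was higher in luciferase neurons on all 5 of its tested probe sets. On the probe set with the highest level (1423213_at) it stood at 3155, 2885, 3262 and 3175 in luciferase neurons, against 1755, 1955 and 1967 in blank neurons. Every luciferase array lay above every blank array on each of the 5. The mean was 3119 ± 163 in luciferase neurons (SD, n = 4), against 1893 ± 119 in blank neurons (SD, n = 3), a 1.65-fold rise (a log2 difference of 0.72 with standard error 0.078, limma adjusted p = 6.4e-04). A second probe set (1450905_at) had 1183, 1078, 1151 and 1235 in luciferase neurons, against 584.4, 636.0 and 654.0 in blank neurons, which is 1.86-fold (log2 change 0.89, adjusted p = 2.4e-04 from limma). The widest gap was on probe set 1450906_at, with 575.1, 639.9, 704.3 and 822.0 in luciferase neurons, against 249.8, 193.5 and 234.7 in blank neurons. That is 3.02-fold, a log2 change of 1.60 with a 95% interval of 1.30 to 1.89, whereas the intervals of the other 4 reached from 0.48 to 1.21. The difference between probe sets was not tested, and the sources used here do not give which part of the transcript each one reads. Probe set 1423214_at had 591.2, 368.0, 410.7 and 431.6 in luciferase neurons, against 272.0, 247.5 and 244.6 in blank neurons (log2 change 0.80, adjusted p = 0.0055 from limma), and luciferase replicate 1 was the highest there. Probe set 1443434_s_at had 244.3, 208.5, 185.5 and 254.2 in luciferase neurons, against 116.7, 134.6 and 102.5 in blank neurons (log2 change 0.92, adjusted p = 0.0020 from limma). All 5 passed under every alternative, with adjusted p of at most 0.047 from limma.

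*Sema7a*, which encodes the only semaphorin held to the membrane by a lipid anchor and a ligand of both plexin C1 and integrins, went the other way. It stood at 238.3, 244.8, 251.3 and 245.2 in luciferase neurons, against 478.5, 380.3 and 494.4 in blank neurons (1459903_at). The luciferase arrays were tightly grouped and lay below all blank arrays, of which replicate 6 was the lowest. The mean was 244.9 ± 5.28 in luciferase neurons (SD, n = 4), against 451.1 ± 61.8 in blank neurons (SD, n = 3), and the log2 difference was -0.87 (standard error 0.097, 95% interval -1.09 to -0.65, limma adjusted p = 7.0e-04). This held under every alternative, with log2 changes from -0.99 to -0.80. The other *Sema7a* probe set (1422040_at) stayed under 50 on all arrays and was outside the rule. Its values were 25.7, 22.5, 23.8 and 29.0 in luciferase neurons, against 45.9, 35.5 and 42.4 in blank neurons, again without overlap.

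**Figure D2:**
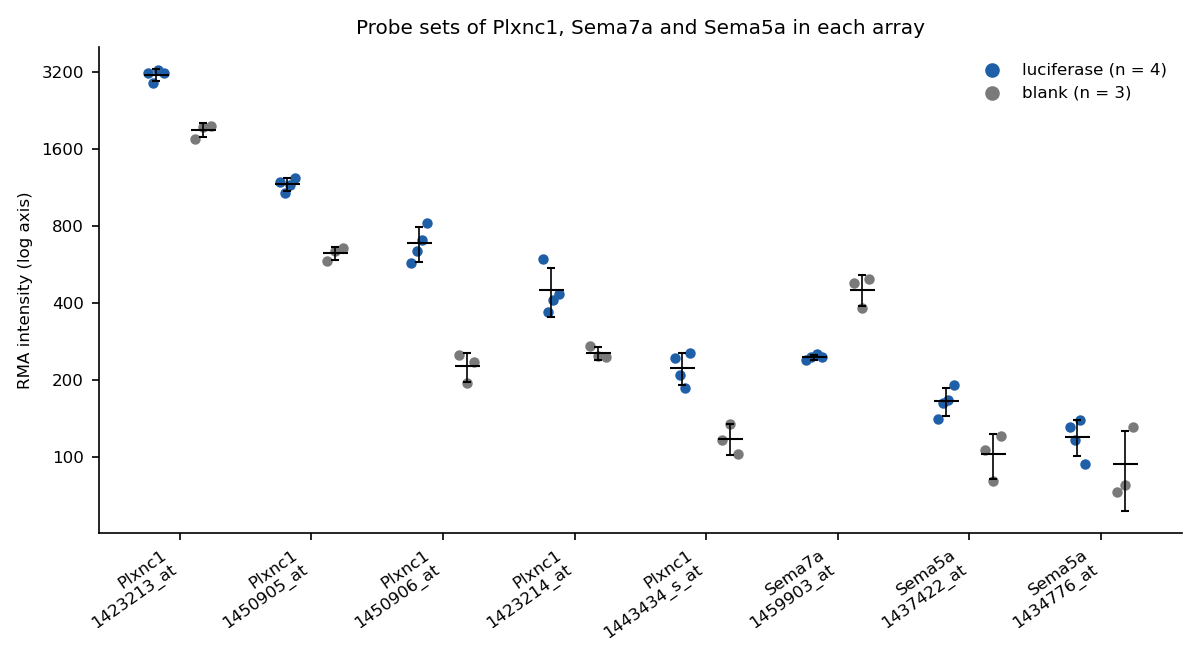
RMA intensity (log axis) of the tested probe sets of *Plxnc1*, *Sema7a* and *Sema5a* on each array, for luciferase neurons (blue, n = 4) and blank neurons (grey, n = 3); points are arrays and bars give mean ± SD. Luciferase arrays lie above blank arrays on the 5 *Plxnc1* probe sets, below them for *Sema7a*, and overlap them on *Sema5a* 1434776_at.

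Class 5 semaphorins cross the membrane and carry thrombospondin repeats beside the semaphorin domain. *Sema5a*, a gene studied as a candidate in autism, had 140.6, 162.3, 166.1 and 190.2 in luciferase neurons, against 106.0, 80.6 and 120.9 in blank neurons (1437422_at). The groups did not overlap, and the rise was 1.62-fold (164.8 ± 20.3 in luciferase neurons, SD, n = 4, against 102.5 ± 20.4 in blank neurons, SD, n = 3; a log2 difference of 0.70 with standard error 0.14, limma adjusted p = 0.0096). It missed the threshold only without variance moderation (adjusted p = 0.062), and the change was 0.53 without blank replicate 6, which is under 1.5-fold. The second *Sema5a* probe set (1434776_at) had 130.8, 116.1, 138.9 and 94.1 in luciferase neurons, against 72.8, 77.6 and 131.0 in blank neurons. Blank replicate 7 lay among the luciferase arrays there, and the log2 change of 0.39 did not pass in limma (adjusted p = 0.186), and it was 0.66 with that array left out (adjusted p = 0.013). *Sema5b*, its close relative, had changes of 0.099 and -0.068 on its probe sets, with adjusted p from 0.506 to 0.699 from limma.

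The class 4 semaphorins, transmembrane ligands that mostly bind B-type plexins, had 4 of 9 probe sets higher and none lower. These are 44.4% and 0%, beside 16.2% and 8.26% of all probe sets. *Sema4f*, whose protein binds the synaptic scaffold of the PSD, stood at 382.5, 441.1, 426.7 and 414.8 in luciferase neurons, against 297.6, 295.7 and 338.6 in blank neurons. It was higher by 0.42 on the log2 scale (standard error 0.083, adjusted p = 0.0078 from limma), without overlap, and passed under every alternative. *Sema4d*, a ligand of plexin B1 that promotes the assembly of inhibitory synapses, was read by 3 probe sets. The one with the highest level (1420824_at) had 233.2, 216.1, 223.4 and 222.9 in luciferase neurons, against 164.7, 177.3 and 204.8 in blank neurons (log2 change 0.30, adjusted p = 0.033 from limma). Probe set 1434596_at had 215.6, 234.1, 243.4 and 225.6 in luciferase neurons, against 138.6, 148.1 and 199.9 in blank neurons (log2 change 0.52, adjusted p = 0.016 from limma). In both of them blank replicate 7 was the highest blank array and still under every luciferase array. The third, 1420823_at, was near the level limit and had a log2 change of 0.067. Probe set 1420824_at no longer passed when any of luciferase replicates 1 to 4 or blank replicates 5 and 6 was left out, with adjusted p from 0.057 to 0.122 in limma. Nor did 1434596_at without blank replicate 5 or 6, with adjusted p of 0.057 and 0.059.

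*Sema4a*, known as a regulator of immune cells and of the retina, had 264.4, 243.8, 247.4 and 272.9 in luciferase neurons, against 202.8, 215.4 and 218.8 in blank neurons. The log2 difference was 0.28 in limma (standard error 0.074, adjusted p = 0.027). *Sema4a* no longer passed without luciferase replicate 1 or 4 or blank replicate 5 or 6 (adjusted p from 0.063 to 0.097). A left-out *Sema4a* probe set with _x in its name (1438934_x_at) had overlapping groups. Its change was 0.014 when such probe sets were kept (adjusted p = 0.915 from limma). *Sema4b*, *Sema4c* and *Sema4g* did not pass. Their changes were 0.23 and 0.094 for *Sema4b*, -0.030 for *Sema4c*, a ligand of plexin B2, and 0.15 for *Sema4g*, another, with adjusted p from 0.099 to 0.853 from limma.

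Among the secreted class 3 semaphorins, *Sema3c*, which binds both neuropilins, was the only one to pass. It stood at 265.4, 230.2, 257.8 and 220.1 in luciferase neurons, against 165.0, 174.5 and 200.8 in blank neurons. All luciferase arrays lay above all blank arrays, and limma gave a log2 difference of 0.43 (standard error 0.098, adjusted p = 0.014, which was 0.055 when blank replicate 5 was left out). *Sema3a*, the classic repellent that collapses growth cones, had 464.4, 478.2, 472.6 and 536.1 in luciferase neurons, against 467.2, 421.7 and 503.5 in blank neurons. The groups overlapped, and the 95% interval of its change (0.073) reached from -0.12 to 0.27. *Sema3f*, a ligand of neuropilin 2, differed by 0.27 on the log2 scale (limma, adjusted p = 0.0705) and passed when luciferase replicate 3 (adjusted p = 0.040) or blank replicate 7 (0.041) was left out. *Sema3e*, which binds plexin D1 without a neuropilin, had changes of -0.31, -0.19 and -0.098 on 3 probe sets and passed on none. On its highest one, luciferase replicate 4 was at 179.4 and the other luciferase arrays at 127.6 to 134.9, and the blank arrays ran from 146.1 to 217.4.

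Of the 8 probe sets of class 6 semaphorins, transmembrane ligands of A-type plexins, 1 was higher, 1 was lower and 6 did not pass (12.5% in each direction, beside 16.2% and 8.26% of all probe sets). *Sema6a* stood at 208.1, 216.7, 201.5 and 223.9 in luciferase neurons, against 270.2, 258.8 and 332.6 in blank neurons (1436458_at). It was lower by 0.43 on the log2 scale (a difference of -0.43 with standard error 0.097, limma adjusted p = 0.014), without overlap, although its lower-level probe sets had changes of -0.14 and 0.021 and did not pass. *Sema6d*, a ligand of plexin A1, had 1137, 1100.0, 1133 and 1139 in luciferase neurons, against 942.5, 936.8 and 988.4 in blank neurons. The gap between the groups was small, and limma gave a log2 difference of 0.24 (standard error 0.066, adjusted p = 0.029). *Sema6d* no longer passed when any single array other than blank replicate 7 was left out (adjusted p from 0.055 to 0.093), or under median centring of the arrays (0.118). *Sema6b* and *Sema6c* did not pass, with changes of -0.067 for *Sema6b* and of -0.19 and -0.21 for *Sema6c*, which was lower on both probe sets without blank replicate 7 (adjusted p = 0.032 and 0.0058 from limma).

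The neuropilins, receptors without a signaling domain of their own that also bind VEGF, had 2 of 7 probe sets higher, both of *Nrp1*, and none lower. These are 28.6% and 0%, beside 16.2% and 8.26% of all probe sets. *Nrp1*, the receptor of SEMA3A, had 1305, 1141, 1257 and 1345 in luciferase neurons, against 1199, 1238 and 1310.1 in blank neurons on its highest probe set (1448943_at). The arrays of the groups overlapped there, and the change was 0.013 with a 95% interval of -0.17 to 0.19. On 1418084_at it had 590.1, 609.7, 678.3 and 829.0 in luciferase neurons, against 493.0, 485.6 and 537.3 in blank neurons. On 1448944_at it had 400.9, 400.1, 429.9 and 473.5 in luciferase neurons, against 309.5, 291.8 and 373.3 in blank neurons. Both were without overlap, with log2 changes of 0.41 and 0.40 (adjusted p = 0.033 and 0.024 from limma), and in both luciferase replicate 4 was the highest. Neither passed without luciferase replicate 3 or blank replicate 5 or 6, nor did 1448944_at without luciferase replicate 4 (adjusted p from 0.054 to 0.098). The *Nrp1* probe set with the lowest level had a change of -0.050 that did not pass, so the gene was higher on 2 of 4 probe sets and the difference between them was not tested. *Nrp2*, the receptor of SEMA3F, had changes of 0.18, 0.24 and 0.23 on 3 probe sets, none of which passed (adjusted p from 0.107 to 0.235 from limma). Its highest probe set passed without blank replicate 7 (0.32, adjusted p = 0.016) and another without luciferase replicate 1 (0.32, adjusted p = 0.040).

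Of the A-type plexins, which signal for the class 3 and class 6 ligands, *Plxna2* passed on 2 of 4 probe sets. On 1453286_at it had 619.5, 603.9, 755.8 and 947.1 in luciferase neurons, against 558.8, 491.6 and 523.7 in blank neurons. On 1429772_at it had 320.0, 280.4, 320.4 and 467.3 in luciferase neurons, against 220.5, 231.8 and 247.2 in blank neurons. Luciferase replicate 4 stood highest on both, and the groups did not overlap. In limma the log2 differences were 0.46 (standard error 0.15, adjusted p = 0.049) and 0.55 (standard error 0.15, adjusted p = 0.030), while the other *Plxna2* probe sets had 0.14 and -0.087. Probe set 1453286_at no longer passed when any of luciferase replicates 3 and 4 and the blank arrays was left out (adjusted p from 0.066 to 0.141). Nor did 1429772_at without luciferase replicate 3 or blank replicate 5 or 6 (0.056 to 0.089). *Plxna1*, *Plxna3* and *Plxna4* had changes from -0.13 to 0.12, with adjusted p from 0.431 to 0.878 from limma. The interval of *Plxna1* was -0.26 to 0.21 and that of the higher *Plxna3* probe set -0.21 to 0.15.

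**Figure D3:**
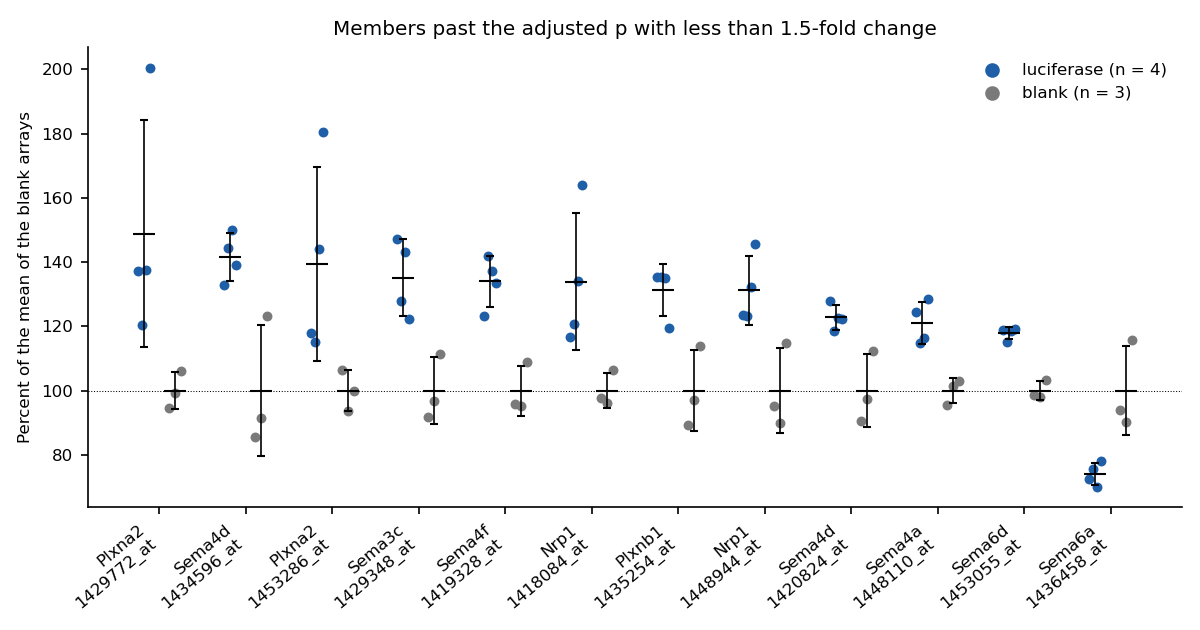
Level on each array relative to the blank mean, set to 100%, for the 12 probe sets past the adjusted p with a change under 1.5-fold, in luciferase neurons (blue, n = 4) and blank neurons (grey, n = 3); bars give mean ± SD. The groups do not overlap on any of them, *Sema6a* is the only one with its luciferase arrays below blank, and luciferase replicate 4 is the highest point on both *Plxna2* and both *Nrp1* probe sets.

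Among B-type plexins, receptors of class 4 semaphorins that act on RhoA through exchange factors, *Plxnb1* was higher on 1 of 2 probe sets. On 1435254_at it had 178.5, 178.6, 178.2 and 157.4 in luciferase neurons, against 117.6, 127.9 and 150.1 in blank neurons (log2 change 0.40, adjusted p = 0.018 from limma). This probe set no longer passed without blank replicate 5 (adjusted p = 0.0695) or 6 (0.060). The higher probe set, 1435255_at, had 359.6, 325.3, 339.4 and 350.0 in luciferase neurons, against 361.4, 310.0 and 320.6 in blank neurons, with a change of 0.057. *Plxnb2* had a change of 0.28 that did not pass (adjusted p = 0.135), and did without blank replicate 7 (0.44, adjusted p = 0.0097 from limma). *Plxnb3*, read by a probe set that can match more than 1 transcript, had -0.11. *Plxnd1*, known from vessels and the receptor of SEMA3E, had -0.17 (adjusted p = 0.282 from limma), and its luciferase arrays (439.5 to 464.0) lay within the range of the blank arrays (434.9 to 614.8).

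Ligands were then set beside receptors they are known to bind, in a list of 32 pairs that does not hold every known pair. Each side is given by its own change, since levels of different probe sets cannot be compared. Both sides were tested in 28 pairs, by the highest probe set of each gene. By these probe sets, both sides passed in 2 pairs and went opposite ways: *Sema7a* (-0.87) and *Plxnc1* (0.72), and *Sema6a* (-0.43) and *Plxna2* (0.46). In 12 pairs only the ligand passed, in 2 only the receptor, and in 12 neither. The pairs share genes, so these counts are not independent of each other. *Sema5a* rose by 0.70 on the log2 scale, and the receptors listed for it, *Plxnb3*, *Plxna1* and *Plxna3*, had changes of -0.11, -0.025 and -0.034. *Sema3c* was higher by 0.43, and the receptors listed for it, *Nrp1*, *Nrp2* and *Plxnd1*, had 0.013, 0.18 and -0.17. For *Sema4d* the change was 0.30 and those of *Plxnb1* and *Plxnb2* were 0.057 and 0.28. In the pair of *Sema6a* and *Plxna2*, 1 of 3 *Sema6a* and 2 of 4 *Plxna2* probe sets passed, and the *Plxna2* side was lost when most single arrays were left out. For *Sema7a* and *Plxnc1* every tested probe set passed. Other probe sets of 2 receptors passed in the same direction as their ligand, namely those of *Nrp1* (0.41 and 0.40) beside *Sema3c* and that of *Plxnb1* (0.40) beside *Sema4d* and *Sema4a*.

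**Figure D4:**
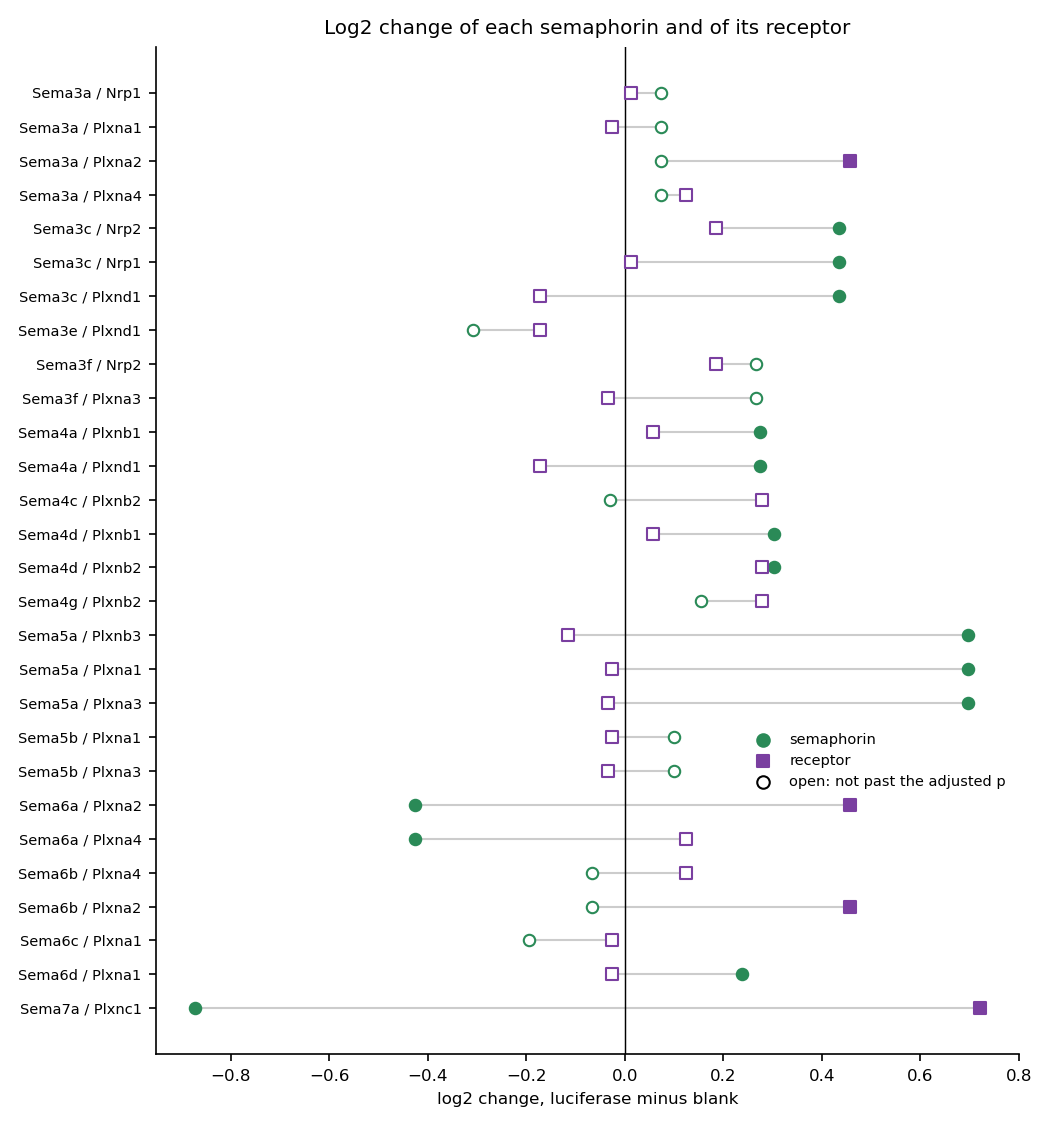
Log2 change (luciferase minus blank, x axis) of each semaphorin (green circles) and of a receptor it binds (purple squares) for the 28 pairs with both sides tested, by the highest probe set of each gene; filled symbols passed the adjusted p from limma. The line of *Sema7a* and *Plxnc1* is the longest, from -0.87 to 0.72.

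The other genes that work with semaphorin receptors were counted by the highest probe set of each. Of 69 listed genes, 56 were tested, with 6 higher and 6 lower, and the other 44 did not pass (10.7% in each direction, beside 16.9% and 8.55% of all genes), with a median log2 change of 0.036. *Limk1*, the kinase that inactivates cofilin, fell to 201.2 ± 9.79 (SD, n = 4) in luciferase neurons, against 410.6 ± 48.1 (SD, n = 3) in blank neurons (a log2 difference of -1.02 with standard error 0.093, limma adjusted p = 2.8e-04). *Sdc3*, a heparan sulfate proteoglycan of axons, fell to 1404 ± 59.9 (SD, n = 4) in luciferase neurons, against 2698 ± 315 (SD, n = 3) in blank neurons, a log2 change of -0.94 (adjusted p = 3.5e-04). *Pip5k1c*, a lipid kinase that feeds integrin adhesion, *Rap1b*, a small GTPase of the kind that plexins switch off, *Dpysl3*, a collapsin response mediator, and *Mras* were lower by smaller amounts, with log2 changes of -0.52, -0.51, -0.36 and -0.29 (adjusted p from 0.0019 to 0.016 from limma). *Alcam*, an adhesion molecule of axons, was higher by 0.61 (adjusted p = 0.0033). *Cdk5r1*, the activator of the kinase CDK5, *Tln1*, which links integrins to actin, *Gipc1*, which binds the tail of neuropilin 1, *Robo1*, a Slit receptor, and *Rock1*, an effector of RhoA, rose by 0.23 to 0.35 on the log2 scale. Only 1 of 4 *Cdk5r1* and 1 of 2 *Tln1* and *Mras* probe sets passed, 2 of 4 of *Alcam*, 3 of 4 of *Rock1* and 2 of 3 of *Sdc3* and *Dpysl3*, and all those of the other named genes that passed. *Rac1* and *Rhoa* had changes of -0.11 and 0.059, and *Dpysl2* and *Crmp1*, abundant collapsin response mediators, 0.067 and -0.028; none of these passed on the highest probe set, and the other *Dpysl2* probe set did pass. Without a single array the number of higher genes ran from 2 (without luciferase replicate 4 or blank replicate 5 or 6) to 10 (without blank replicate 7), and it was 3 without luciferase replicate 1, 2 or 3. There were 1 higher and 9 lower under median centring, 3 and 7 under quantile normalization and 14 and 7 with array weights.

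Markers of other cells moved in the same arrays. Of 11 tested astrocyte markers 6 were higher and none lower (54.5% and 0%, beside 16.9% and 8.55% of all genes). Their summed level ran from 31390 to 34109 on luciferase arrays and from 24099 to 26595 on blank arrays. *Aldoc*, *Slc1a2* and *Glul* had the highest levels in that sum, and of these *Aldoc* and *Glul* did not pass on the highest probe set. Probe sets of 1 gene were split here too. Of the genes counted as higher, *Slc1a2* passed on 2 of 4, *Aqp4* on 2 of 3 and *Gja1* on 1 of 2. Of those counted as not past, *Slc1a3* passed on 2 of 3, *Glul* on 1 of 2 and *Sox9* on 1 of 2. The largest change was that of *Gfap*, which averaged 981.3 ± 88.8 in the luciferase group (SD, n = 4), against 434.7 ± 77.6 in the blank group (SD, n = 3). Of 7 progenitor and dividing cell markers 3 were higher (*Pax6*, *Vim* and *Hes5*) and none lower, or 42.9% and 0%. *Nes*, *Sox2* and the dividing cell markers *Mki67* and *Top2a* did not pass. The sums were 5085 to 5610.3 on luciferase arrays and 4187 to 4460.2 on blank arrays. The vascular and meningeal markers had 1 of 6 higher and 2 lower (16.7% and 33.3%). The higher was *Pdgfrb* (0.70 on the log2 scale), which passed on 1 of 2 tested probe sets. It averaged 78.3 on luciferase arrays and 49.3, near the level limit, on blank arrays. The lower were *Dcn* and *Col1a2*. *Dcn* averaged 421.5 ± 83.7 on luciferase arrays (SD, n = 4), against 834.7 ± 93.5 on blank arrays (SD, n = 3). *Col1a2* averaged 42.0 on luciferase arrays and 56.5 on blank arrays, near the level limit. Their sums, led by *Dcn*, were 602.4 to 822.0 on luciferase arrays and 1011 to 1177 on blank arrays. The oligodendrocyte lineage markers had 1 of 9 higher and 1 lower (11.1% each way), and the GABA neuron markers 1 of 11 each way (9.09%). Of 10 microglia markers 2 were tested and neither passed. The part of these cells in the values of the semaphorin and plexin genes was not tested.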

How the data were processed

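Affymetrix Mouse 430_2 arrays of 4 luciferase and 3 blank samples were analysed; groups and replicate numbers came from the sample titles. Per the paper's methods and the labels, the authors normalized the scans with RMA (no version stated), left out 1 untransduced sample for quality and deposited intensity values on a linear scale. The blank columns were moved up by 1 row, since the correlation of the group means over the probe sets (controls left out) was 0.995 with that move and 0.421 without it. The table held 0 columns of other samples. Probe sets with _x in the name, 64 controls and those under 50 on all 7 arrays were left out. Log2 values of the 22748 left were compared, as luciferase minus blank, by lmFit and eBayes of limma 3.58.1 (R 4.3.3) with Benjamini-Hochberg adjustment over all of them; a call also needed a change of at least 1.5-fold beside an adjusted p no higher than 0.05. Names came from the array annotation, matched by gene ID to a RefSeq table of GRCm38.p6 (34754 of 34958 matched, 0 updated). The probe set with the highest mean log2 level stood for a gene. Every member past the adjusted p is given array by array, and up to 6 pathway genes in each direction are named. The members, lists and tests were chosen with earlier results of these data known. Alternatives were other level filters, quantile normalization, median centring, trend and robust in eBayes, array weights, no moderation, keeping _x probe sets, averaging the probe sets of a gene, and leaving out each array. The fit was tested on simulated data.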

Additional observations from a re-analysis of the deposited data

Results flagged for a closer look

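In each of the 56 tested probe sets the 4 luciferase arrays were looked at for 1 array far from the other 3, by its gap relative to the whole range; chance marks about 1 in 20 groups, and 4 of 56 were marked. *Plxnb1* (1435254_at) was 157.4 in luciferase replicate 4 and 178.2 to 178.6 in the other luciferase arrays, a low array in a group that lay above blank even so. *Plxna2* (1451753_at) was 330.3 in luciferase replicate 2 and 366.0 to 368.6 in the others. *Sema3e* (1442226_at) was 179.4 in luciferase replicate 4 and 127.6 to 134.9 in the others. *Sema6d* (1453055_at) was 1100.0 in luciferase replicate 2 and 1133 to 1139 in the others. The groups of 3 blank arrays were too small for this look.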

How the results depend on the processing

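No paired analysis was possible because the groups share no replicate number. Of the 19 member probe sets past the adjusted p, 7 passed under every alternative that tested them (5 of *Plxnc1*, 1 of *Sema4f* and 1 of *Sema7a*) and 12 were lost under at least 1; of the 37 others, 8 passed under at least 1. No member past the threshold in either fit changed sign. The number of higher member probe sets, 17, was 11 with quantile normalization, 11 with median centring of the arrays, 8 without moderation and 7 to 20 when 1 array was left out. The number of lower ones, 2, was 4 with no filter on level, 1 without moderation and 2 to 4 when 1 array was left out. That of those called lower, 1, was 2 with no filter. Of all probe sets, 16.2% were higher and 8.26% lower in the main fit. These shares were 10.1% and 4.61% without moderation and 6.79% and 5.16% with no filter. With 1 array left out they ran from 8.86% to 21.4% and from 5.07% to 9.59%. With centring, 410 probe sets of all were called higher and 527 lower, against 659 and 294. Of the other pathway genes, 6 were higher, which became 2 with no filter, 3 with quantile normalization, 1 with centring, 14 with array weights, 11 with the mean over the probe sets of a gene and 2 to 10 when 1 array was left out. The causes were not tested. Levels under 50 on all of these 7 arrays were left out, whereas the methods set that limit over all samples of the study, and 4 arrays against 3 limit the precision.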

Other observations

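Of the 23 member probe sets left out for level or name, the luciferase arrays lay above the blank arrays in 4 and below them in 5, and the groups overlapped in 14. Of all tested probe sets, 22.5% had the luciferase arrays above and 12.3% had them below. The shares over all left-out probe sets were not counted, so these counts are not read as a result about the family. *Sema3d*, a secreted class 3 semaphorin, was at 49.9, 33.4, 49.4 and 39.9 in luciferase neurons, against 18.8, 21.5 and 22.8 in blank neurons, just under the limit of 50. With no filter on level its log2 change was 1.02 (adjusted p = 0.0017 from limma). *Sema3g*, a ligand of neuropilin 2, was at 22.2 to 26.4 in luciferase neurons, against 17.3 to 20.3 in blank neurons. Another *Sema3d* probe set (1453148_at) was at 13.7 to 17.6 in luciferase neurons, against 13.7 to 14.5 in blank neurons. *Sema3b*, a secreted semaphorin studied as a tumour suppressor, had 1 of 3 probe sets without overlap (1416644_a_at), which was at 28.6 to 32.1 in luciferase neurons, against 38.8 to 43.2 in blank neurons. The others at low levels without overlap were *Sema3c* 1420696_at (29.3 to 34.8 in luciferase neurons, against 27.7 to 28.8 in blank neurons), *Sema3a* 1420417_at (15.5 to 19.5 in luciferase, against 19.6 to 21.7 in blank), *Sema3e* 1425906_a_at (14.3 to 16.0 in luciferase, against 17.2 to 21.2 in blank), *Sema6d* 1446536_at (16.2 to 21.1 in luciferase, against 21.3 to 24.0 in blank) and the *Sema7a* probe set described above. The *Sema6d* one lay opposite in direction to the tested *Sema6d* probe set that passed. *Sema4f* was read by a left-out probe set (1439768_x_at) at 1341, 1194, 1224 and 1228 in luciferase neurons, against 827.1, 824.9 and 838.0 in blank neurons, and differed by 0.59 on the log2 scale (limma, adjusted p = 0.0010) when such probe sets were kept. The left-out *Sema3f* probe set (1438947_x_at) was at 631.0 to 791.9 in luciferase neurons, against 677.4 to 974.2 in blank neurons, and had a change of -0.26 (adjusted p = 0.201), where the tested *Sema3f* probe sets had 0.27 and 0.11. That of *Sema4a* (1438934_x_at) was at 358 to 418 in luciferase neurons, against 364 to 415 in blank neurons. It had a change of 0.014, where the tested *Sema4a* probe set had 0.28.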
